A study of Mus musculus with 6 samples.

Results

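The caveolae coat genes are 8 genes whose proteins build caveolae, the small flask-shaped pits of the plasma membrane: Cav1, Cav2, Cav3, Cavin1, Cavin2, Cavin3, Ehd2 and Pacsin2. They were taken by name, through every probe set (a group of short probes for 1 transcript on the array) that the platform annotation assigns to 1 of these genes alone, which gave 16 of 45037 probe sets and 7 of the 8 genes. The expression of Pacsin2 was not analysed here. The arrays came from whole epididymal white adipose tissue of 6 C57BL/6 mice at 8 weeks of age, with 1 Affymetrix array per mouse. In the 3 CNOT3KO mice Cnot3, a subunit gene of the CCR4-NOT complex that shortens mRNA poly(A) tails, was deleted by Cre recombinase under the Adiponectin promoter, and the 3 WT mice were wild type. That promoter is active in adipocytes, so the other cells of the fat pad keep Cnot3. The values are linear MAS5 signals, and the comparison asks which transcript levels in this fat depot change once Cnot3 is removed from adipocytes.

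Caveolae are made of caveolins, hairpin proteins inserted into the inner face of the plasma membrane, and of cavins, cytosolic proteins that assemble into a coat around the bulb. EHD2 forms a ring at the neck and holds the pit at the surface, and pacsin 2 bends the membrane there. Adipocytes and endothelial cells are among the cells richest in caveolae, which in adipocytes serve as a membrane reserve under stretch and as a platform for insulin signalling and fatty acid uptake. Inherited loss of caveolin 1 or cavin 1 causes lipodystrophy in people.

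The upstream sequences of 4 of these genes are shown because Cav2, Cavin1 and Ehd2 had the largest falls among the coat genes, by their brightest probe sets, and because Cav1 and Cav2 lie side by side on chromosome 6 with 0 other genes of the RefSeq table across their span. Each is the 250 bases before the first listed start site, 5′ to 3′ on the strand of the gene, from RefSeq's promoter table on GRCm38.p6. Capitals mark matches, on either strand, to the motifs named below.
Cav1, chr6:17306085-17306334, plus strand: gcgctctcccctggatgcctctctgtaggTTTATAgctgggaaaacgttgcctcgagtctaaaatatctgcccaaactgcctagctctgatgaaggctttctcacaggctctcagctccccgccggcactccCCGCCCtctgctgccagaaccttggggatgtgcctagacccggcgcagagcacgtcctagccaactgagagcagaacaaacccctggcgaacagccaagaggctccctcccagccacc
Cav2, chr6:17280935-17281184, plus strand: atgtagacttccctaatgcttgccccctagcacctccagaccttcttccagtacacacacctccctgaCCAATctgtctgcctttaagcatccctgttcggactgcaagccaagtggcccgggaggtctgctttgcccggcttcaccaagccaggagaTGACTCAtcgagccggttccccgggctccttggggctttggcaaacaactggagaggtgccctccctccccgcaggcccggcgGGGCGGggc
Cavin1, chr11:100970618-100970867, minus strand: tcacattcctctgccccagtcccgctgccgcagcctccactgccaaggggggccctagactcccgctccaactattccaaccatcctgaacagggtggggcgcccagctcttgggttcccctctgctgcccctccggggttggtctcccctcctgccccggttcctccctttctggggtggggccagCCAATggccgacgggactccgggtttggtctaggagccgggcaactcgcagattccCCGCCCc
Ehd2, chr7:15967536-15967785, minus strand: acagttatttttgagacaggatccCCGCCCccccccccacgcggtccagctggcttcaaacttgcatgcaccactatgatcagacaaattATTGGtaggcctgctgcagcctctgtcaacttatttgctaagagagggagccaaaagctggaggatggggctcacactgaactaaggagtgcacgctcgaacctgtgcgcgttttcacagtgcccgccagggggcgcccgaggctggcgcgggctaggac

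The promoter table matched 7 of the 8 genes, with Pacsin2 and Cav3 but without Cavin3, so these are not the 7 genes with probe sets. In the window before the first listed start of each, 8 motifs were searched on both strands. A GC box (GGGCGG) lay in 5 of the 7 windows, against 32.7% of the 32851 windows of this length in the table. The 5 were the 4 shown above and that of Pacsin2. Those 32851 windows take in every listed start, not only the first of each gene, so the shares are over unlike sets. The 4 windows shown were 58.0% to 67.6% G or C, against a median of 52.4% over all windows. Of those not shown, the window of Cavin2 was 40.4% G or C and held no GC box. The windows of Cav3 and Pacsin2 were 56.0% and 62.0%. A CCAAT box (CCAAT) also lay in 5 of the 7, against 33.8% of all windows. It was present in Cav2, Cavin1, Cavin2, Ehd2 and Pacsin2 and had no match in the window of Cav1. The Cav1 window held instead the reverse of a TATA box (TATAAA, in 12.4% of all windows), 216 to 221 bases before the start. Cav2 held an AP-1 element (TGANTCA, in 6.75% of all windows) 86 to 92 bases before its start. The nuclear receptor element (AGGTCA) matched in Cav3 alone among the 7, against 14.0% of all windows. The E-box CACGTG (6.02% of all windows), the sterol response element TCACNCCAC (1.05%) and the cAMP response element TGACGTCA (1.55%) matched in 0 of the 7. These motifs do not overlap in the windows shown, and a match is a description of letters, not of binding.

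Caveolae coat mRNAs were lower in the fat of CNOT3KO mice. Of the 6 genes bright enough to be tested, each by its brightest probe set, 4 fell (Cav2, Cavin1, Cavin2 and Ehd2), 0 rose, and Cav1 and Cavin3 did not pass limma's adjusted p of 0.05. Over all 12769 tested genes, 16.9% were called lower, 23.2% higher and 40.1% in either direction. The median log2 difference of the 6 genes was -0.45, against 0.02 over all tested genes, and their own values ran from -0.71 to -0.28. Their groups of 3 did not overlap in 5 of 6 genes, each lower in CNOT3KO, against 22.7% of tested genes that were lower without overlap. The number called lay between 3 and 5 under every alternative tried, and was 3 without WT mouse 2, CNOT3KO mouse 1 or CNOT3KO mouse 2. It was also 3 when probe sets were averaged or those matching several transcripts were avoided, where Cavin1 was not called (-0.13 and 0.62). It was 5 without WT mouse 1 and under each other setting in which Cav1 passed. The direction of all genes depended on scaling, with 2959 genes higher and 2156 lower as deposited but 2318 higher and 2800 lower with arrays centred on the median. The 6 members stayed lower under each of the 3 scaling alternatives.

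**Figure D1:**
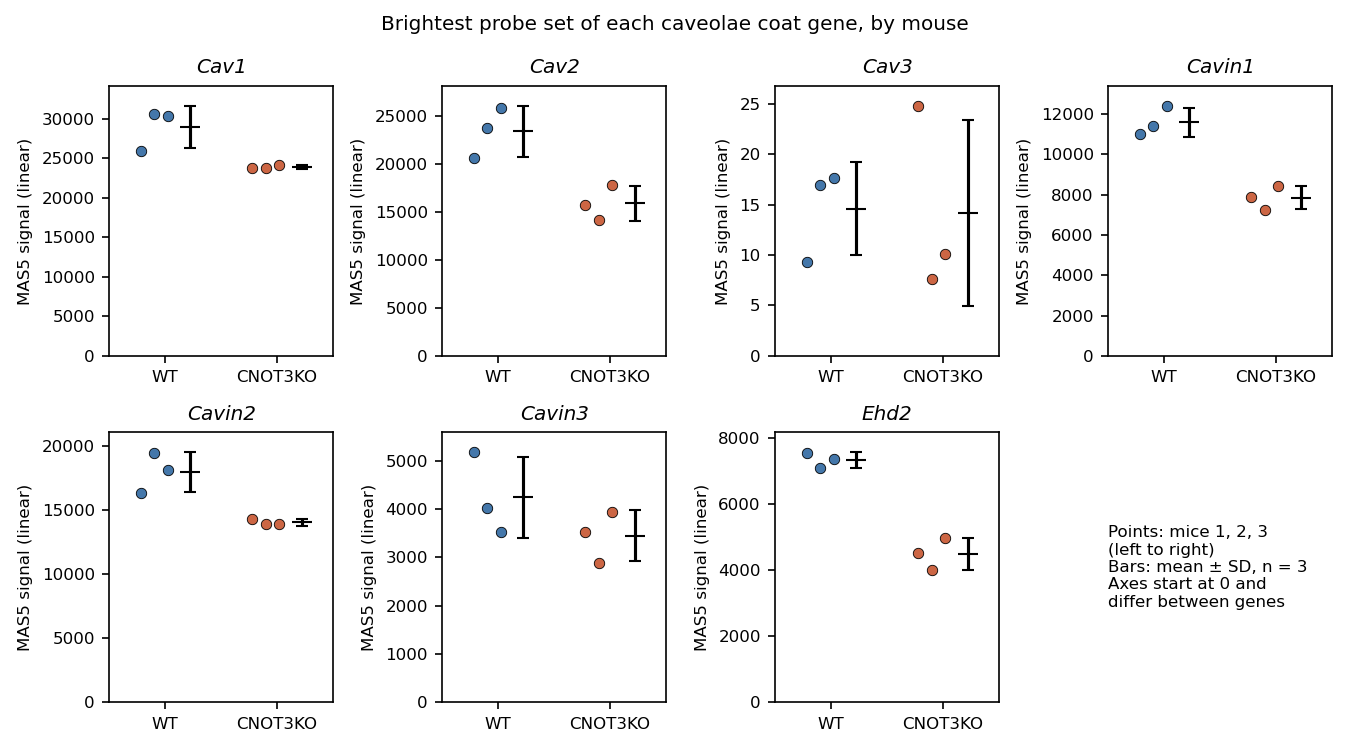
MAS5 signal (vertical axis, linear, from 0, its range differing between genes) of the brightest probe set of each gene in 3 WT mice (blue) and 3 CNOT3KO mice (orange), with mean ± SD beside the points. The CNOT3KO mice lie below all WT mice for Cav1, Cav2, Cavin1, Cavin2 and Ehd2, and the groups overlap for Cavin3 and Cav3.

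The caveolins come first, since Cav1 is the protein without which non-muscle cells make no caveolae. Its 1 probe set read 25967, 30638 and 30386 in WT mice 1, 2 and 3 and 23719, 23720 and 24145 in CNOT3KO mice 1, 2 and 3. All 3 CNOT3KO mice lay below the lowest WT mouse, and they lay closer together than the WT mice did. The means were 28997 ± 2627 (SD, n = 3) and 23861 ± 245 (SD, n = 3), so that CNOT3KO kept 82.3% of the WT signal. The log2 difference was -0.28 (SE 0.10, 95% confidence interval -0.51 to -0.05), with an adjusted p of 0.0568 by limma, just outside the threshold. Cav1 passed without WT mouse 1 (log2 -0.35, adjusted p = 0.0203) and under 6 other settings, with the mouse number as a block among them (adjusted p = 0.0335). With any other mouse left out it did not pass (log2 -0.29 to -0.24). This probe set lay at the 99.96th percentile of mean signal on these arrays.

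Cav2, which joins caveolin 1 in mixed oligomers and needs it to reach the surface, fell. Its brighter probe set read 20635, 23726 and 25886 in the WT mice and 15755, 14146 and 17837 in the CNOT3KO mice. The highest CNOT3KO mouse lay below the lowest WT mouse. The mean went from 23415 ± 2639 to 15913 ± 1850 (SD, n = 3 each), or 68.0% of WT (log2 -0.56, SE 0.12, limma adjusted p = 0.0064). The other Cav2 probe set had the same log2 difference, -0.56, but its groups overlapped and it did not pass when probe sets were tested singly (limma adjusted p = 0.0605). It read 227, 200 and 236 in WT and 120, 116 and 205 in CNOT3KO, where mouse 3 reached the WT range. The call on the brighter probe set held under each of the 19 alternatives, with log2 differences from -0.65 to -0.48.

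Cav3, the caveolin of muscle cells, was near the floor of these arrays. Its 1 probe set read 9.31, 16.9 and 17.6 in WT and 24.8, 7.64 and 10.1 in CNOT3KO, all below the filter of 51.6, so it was not tested. Both groups spanned the same low range. Skeletal muscle markers were also dim, with 7 of 12 below that filter.

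Among the cavins, Cavin1, which is required for caveolae to form, fell by its bright probe set. It read 11000, 11403 and 12399 in the WT mice and 7896, 7256 and 8414 in the CNOT3KO mice. The groups were well apart, with means of 11601 ± 720 and 7855 ± 580 (SD, n = 3 each) and 67.7% of the WT signal left. The log2 difference was -0.56 (SE 0.10, limma adjusted p = 0.0021), and the call held without each mouse in turn (-0.61 to -0.51).

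Cavin1 has 2 further probe sets, both dim. The first read 65.7, 138 and 114 in WT and 222, 157 and 137 in CNOT3KO, a log2 difference of 0.62 in the opposite direction. Its groups overlapped and it did not pass singly (limma adjusted p = 0.0799). The second read 101, 90.1 and 131 in WT and 67.7, 61.6 and 85.1 in CNOT3KO, without overlap, but did not pass either (log2 -0.46). The direction of Cavin1 thus depends on the probe set: the mean of all 3 gave a log2 difference of -0.13 (adjusted p = 0.442), and avoiding the bright probe set, which can match several transcripts, gave the 0.62 of the first dim one. Which of these transcripts each probe set reads was not analysed here.

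Cavin2, a cavin that shapes and extends caveolar membranes, fell by each of its 3 probe sets. The brightest read 16341, 19396 and 18064 in WT and 14300, 13880 and 13881 in CNOT3KO. The CNOT3KO mice lay within a narrow band under the lowest WT mouse, at 78.2% of the WT mean (17934 ± 1532 against 14020 ± 242, mean ± SD of 3 mice each), with a log2 difference of -0.35 (SE 0.10) and a limma adjusted p of 0.0196. This call was lost without WT mouse 2 (-0.29, adjusted p = 0.0958), CNOT3KO mouse 1 (-0.37, adjusted p = 0.0569) or CNOT3KO mouse 2 (-0.34, adjusted p = 0.0582). The other probe sets showed larger differences when tested singly, of -0.52 (limma adjusted p = 0.0031) and -0.67 (0.0095). The second read 7704, 8158 and 8736 in WT and 5846, 5563 and 5714 in CNOT3KO. The third read 6880, 8209 and 10546 in WT and 5213, 4732 and 5993 in CNOT3KO, again with no overlap.

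Cavin3, which binds protein kinase C delta and joins the coat through cavin 1, did not pass. It read 5174, 4017 and 3538 in WT and 3529, 2884 and 3948 in CNOT3KO, so CNOT3KO mouse 3 lay inside the WT range. The mean was 81.4% of WT (4243 ± 841 and 3454 ± 536, mean ± SD of 3 mice each), with a log2 difference of -0.29 (SE 0.16) and a limma adjusted p of 0.183. The 95% confidence interval of -0.65 to 0.07 covers both no difference and the fall seen in Cavin1. Under the 19 alternatives it ran from -0.41 to -0.14 and never passed.

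Ehd2, the ATPase at the caveolar neck, had the largest fall of the 6 genes. Its brightest probe set read 7523, 7069 and 7364 in WT and 4508, 3992 and 4953 in CNOT3KO. The gap between the groups was wider than the spread within either, with means of 7319 ± 230 and 4484 ± 481 (SD, n = 3 each) and 61.3% of WT left. The log2 difference was -0.71 (SE 0.11, limma adjusted p = 0.00076), and the call held under all 19 alternatives (-0.81 to -0.63). Of all tested genes, 7.75% had a lower log2 difference than Ehd2.

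The other Ehd2 probe sets pointed the same way. The second read 1444, 1428 and 1210 in WT and 662, 834 and 432 in CNOT3KO, a log2 difference of -1.10 (limma adjusted p = 0.0030 when tested singly). The third read 669, 981 and 838 in WT and 455, 419 and 508 in CNOT3KO (-0.81, adjusted p = 0.0035). The fourth fell by 0.66 on the log2 scale (adjusted p = 0.034), and the fifth, below the filter, read 52.4 to 67.5 in WT and 23.2 to 45.7 in CNOT3KO. None of the 5 overlapped between groups. Of all tested genes, by 1 probe set each, 22.7% were lower without overlap. Across all members, 15 of 16 probe sets had a lower mean on the log2 scale in CNOT3KO, among them that of Cav3 (-0.04), near the floor. The share of all probe sets with a lower mean was not computed, and the median log2 difference of the 27022 tested ones was -0.06. Of the 14 tested singly, 9 were called lower, against 19.1% of those 27022. Probe sets of 1 gene were read in the same mice and are not independent.

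**Figure D2:**
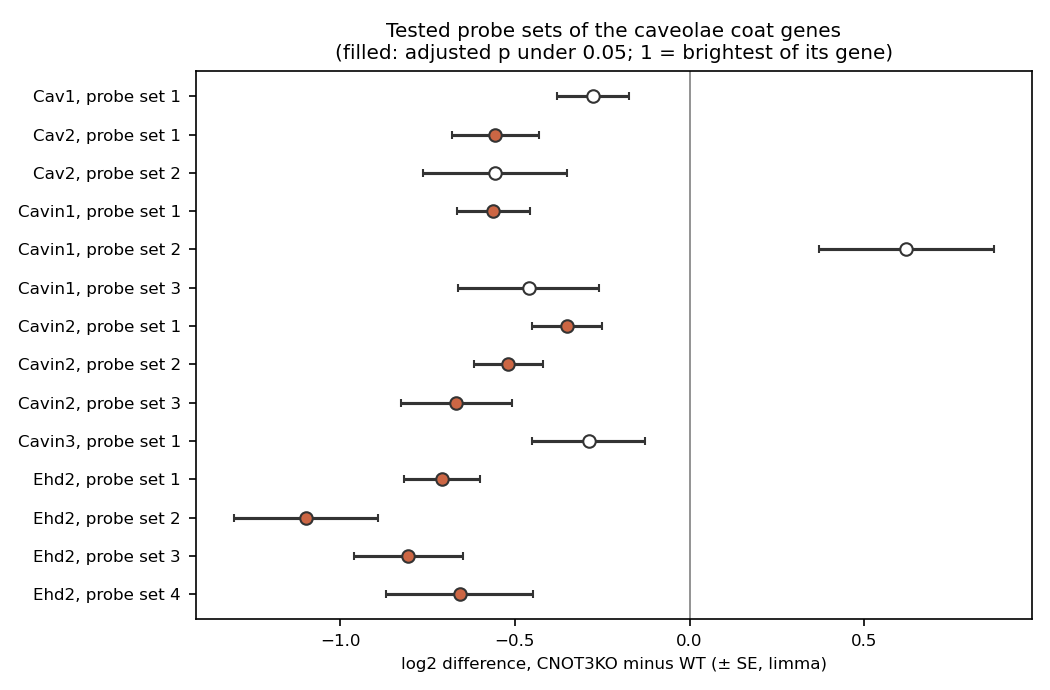
Log2 difference between CNOT3KO and WT (horizontal axis, ± SE from limma) of the 14 tested probe sets, numbered from the brightest of each gene, with filled points where the adjusted p was under 0.05. All but the second Cavin1 probe set, at 0.62, lie left of 0, and the 4 tested Ehd2 probe sets are all filled.

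Ratios between members, each by its brightest probe set, were compared within each array. Single probe sets of 1 gene differed in their log2 differences, so the size of a ratio shift depends on the probe set taken. They ran from -0.67 to -0.35 for Cavin2, from -1.10 to -0.53 for Ehd2 and from -0.56 to 0.62 for Cavin1. Ratios by other probe sets were not computed. The log2 ratio of Cav1 to Ehd2 was higher in each CNOT3KO mouse than in any WT mouse, by 0.43 on average, and so was that of Cav1 to Cav2 (0.28), although these neighbouring genes share a chromosome segment. The ratio of Cav2 to Cavin1 shifted by 0.01, and the groups overlapped. Over the 15 pairs of members, 6 had ratios that did not overlap between groups, each with an exact permutation p of 0.1 (two-sided), the smallest that 3 mice against 3 can give. This permutation test cannot pass 0.05 with so few mice, and no other test of the ratios was run. The share of separated ratios over all pairs of genes was not computed, so this count is only a description. Of 12769 tested genes, 6605 did not overlap between groups by their own signal.

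**Figure D3:**
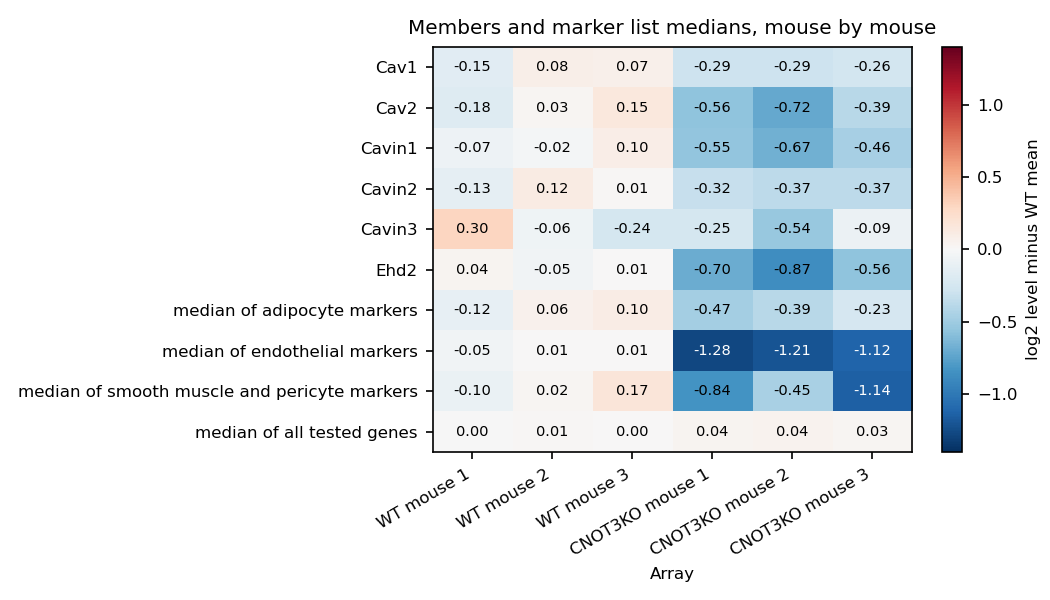
Log2 level of each tested member (brightest probe set), and the median over 3 marker lists and over all tested genes, relative to the WT mean, in each of the 6 arrays (columns), with blue lower and red higher. Ehd2 reads -0.70, -0.87 and -0.56 in the CNOT3KO mice, endothelial markers read -1.28, -1.21 and -1.12, and the median of all tested genes stays between -0.0048 and 0.044 in all 6.

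Caveolae coat mRNAs come from several cell types of the fat pad, and in whole tissue fewer cells of a type and less RNA per cell cannot be told apart. The summed signal of the 6 tested members was 86639 to 97636 in WT and 65877 to 73177 in CNOT3KO. Endothelial markers were lower in 17 of 18 tested genes (median log2 -1.10), with sums of 29173 to 29651 and 10610 to 12378, Kdr, Gpihbp1 and Robo4 falling most (-2.03, -1.64 and -1.58). Adipocyte markers were lower in 7 of 14 (median -0.32), with sums of 204918 to 251808 and 173637 to 208690, Acvr1c, Lep and Aqp7 falling most (-1.29, -1.25 and -1.03). Acvr1c read -0.84 when its probe sets were averaged. Aqp7 was no longer called by another probe set (-0.37), and Adipoq, the defining adipokine, read -0.08. Of 9 tested smooth muscle and pericyte markers 6 fell and 2 rose, Mylk and Cspg4 (median -0.81; Kcnj8, Rgs5 and Abcc9 fell most, by 1.32, 1.29 and 1.29), with sums of 18515 to 25685 and 14823 to 17295. Cspg4 (1.03) lost its call without CNOT3KO mouse 1 (0.997) and read 0.65, still called, without WT mouse 3. Macrophage markers were higher in 12 of 15 and lower in 1, Mertk (median 1.05; Trem2, Gpnmb and Cd68 rose most, by 4.51, 4.30 and 2.93, although Trem2 read 1.88 when its probe sets were averaged), with sums of 30153 to 38412 and 58234 to 80808. Mertk (-0.41) lost its call when WT mouse 2, WT mouse 3, CNOT3KO mouse 1 or CNOT3KO mouse 3 was left out (-0.45 to -0.29). The labelled tissue thus showed its adipocyte markers at 934 or more on every array, and no tested marker of these lists read below 22.7. The part of these shifts in the fall of the members was not tested.

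Markers of 3 further cell types were counted. Mesothelial markers were lower in 4 of 9, Msln (-1.04), Krt18 (-0.80), Upk3b (-0.78) and Lrrn4 (-0.56), with sums of 5253 to 6481 in WT and 3346 to 4656 in CNOT3KO. Upk3b lost its call without WT mouse 2 (-0.68), and with arrays centred on the median 7 of the 9 were called lower. Adipose progenitor markers were higher in 2 of 12, Lum (1.55) and Pdgfra (0.83), and lower in 2, Pi16 (-0.71) and Fmo2 (-0.60), with sums of 32020 to 39688 and 37052 to 44826. Pdgfra lost its call without WT mouse 1 (0.64) or CNOT3KO mouse 1 (0.82), and Pi16 without any 1 mouse other than CNOT3KO mouse 2 (-0.74 to -0.43). Skeletal muscle markers were higher in 1 of 5 tested, Des (1.01), which was lost with the mean of its probe sets (0.42), with sums of 991 to 1544 and 1254 to 1335. The check of the deletion itself gave a Cnot3 signal of 301 ± 7.02 in WT and 201 ± 25.6 in CNOT3KO (SD, n = 3 each; log2 -0.54, limma adjusted p = 0.0131). Where that probe set lies relative to the deleted part was not analysed here.

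Relatives of the neck proteins were mostly not called. Of 10 tested genes of the list holding the other EHD ATPases, pacsins, dynamins and further caveola partners, 2 rose, 0 fell and 8 did not pass (median 0.15). Ehd4, an EHD protein of endosomes, rose from 1045 ± 153 to 1853 ± 319 (mean ± SD of 3 mice each), a log2 difference of 0.81 (SE 0.15) with a limma adjusted p of 0.0027, and Ror1, a receptor that binds cavin 1 and caveolin 1, rose by 0.73 (adjusted p = 0.0078). Ehd1 (0.09) and Ehd3 (-0.05) did not pass. The log2 ratio of Ehd2 to Ehd4 was lower in every CNOT3KO mouse than in any WT mouse, by 1.52 on average. So were those to Ehd1 and Ehd3, by 0.80 and 0.66, all by brightest probe sets. Each had an exact permutation p of 0.1, the smallest possible here, which any ratio without overlap gives with 3 mice against 3. The share of such ratios over all pairs of genes was not computed, so these are only a description.

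Proteins that reside in or signal from caveolae were lower in 7 of 13 tested genes and higher in 0 (median -0.44), and lower in 4 when probe sets were averaged. Insr, the insulin receptor, fell from 2467 ± 175 to 1211 ± 78.7 (mean ± SD of 3 mice each), a log2 difference of -1.01 (SE 0.11) with a limma adjusted p of 0.000107, but the average over its probe sets gave -0.41, which was not called. S1pr1, a sphingosine phosphate receptor of endothelium, fell by 0.87 and Plvap, which forms the diaphragm of endothelial caveolae, by 0.66 (limma adjusted p = 0.0010 and 0.0089). Aoc3, an amine oxidase abundant in adipocyte caveolae, fell from 15446 ± 1566 to 11190 ± 519 (log2 -0.46, adjusted p = 0.0077). Bmpr2, a BMP receptor, read -0.44 and was lost without WT mouse 2 (-0.39). Slc27a1, a fatty acid transporter, read -0.42 and was lost without WT mouse 2 (-0.43) or CNOT3KO mouse 2 (-0.31). The channel gene Trpc1 read -0.48 and was lost without any 1 mouse other than WT mouse 2 (-0.54 to -0.41). Cd36, the fatty acid translocase, read 26505 ± 2678 and 26298 ± 2025 (log2 -0.01, adjusted p = 0.957), and Slc2a4, the insulin-responsive glucose transporter, had a log2 difference of -0.37 that did not pass. Nos3, the endothelial nitric oxide synthase that caveolin 1 binds, read -0.57 with overlapping groups (adjusted p = 0.0759) and passed without CNOT3KO mouse 3 (-0.88). Nos3 also passed with median centring (-0.67), array weights (-0.88) and the mouse number as a block (-0.57). Slc2a4 passed without WT mouse 3 (-0.52) or CNOT3KO mouse 3 (-0.56), and with array weights (-0.54).

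Of 10 tested kinases and adaptors that act on caveolin or at caveolae, 1 fell and 1 rose (median -0.14). Rhoq, the small GTPase TC10 that is active at adipocyte caveolae, fell from 10036 ± 462 to 6398 ± 478 (mean ± SD of 3 mice each), a log2 difference of -0.65 (SE 0.10) with a limma adjusted p of 0.00086. Csk, the kinase that restrains Src, rose by 0.52 (adjusted p = 0.0079). Src itself, Fyn and the other 6 did not pass.

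Other membrane domains were read from a list of raft genes. Of 9 tested flotillin and raft genes 2 rose, Flot1 and Stoml2, and 2 fell, Prnp and Erlin1 (median -0.03). With arrays centred on the median 1 was called higher and 4 lower (median -0.12), and with array weights 3 and 4. Flot1, a flotillin that marks rafts without caveolin, rose from 2217 ± 273 to 4144 ± 157 (mean ± SD of 3 mice each), a log2 difference of 0.90 (SE 0.11) with a limma adjusted p of 0.000263, while its partner Flot2 read -0.03. Prnp, the prion protein gene, read -0.43 and lost its call without WT mouse 2 (-0.41) or CNOT3KO mouse 1 (-0.42) or 2 (-0.34). Erlin1 (-0.37) lost it without WT mouse 3 (-0.31) or CNOT3KO mouse 1 (-0.37), and Stoml2 (0.36) when WT mouse 2, WT mouse 3, CNOT3KO mouse 1 or CNOT3KO mouse 3 was left out (0.30 to 0.37).

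For the clathrin coat, the other main coat of endocytosis, 4 of 14 tested genes were higher and 2 lower (median 0.11), near the 23.2% and 16.9% over all tested genes. Its difference from the caveolar coat was not tested. Ap2m1, the cargo-binding subunit of the AP-2 adaptor, rose from 506 ± 47.9 to 1127 ± 109 (mean ± SD of 3 mice each), a log2 difference of 1.12 (SE 0.12) with a limma adjusted p of 0.000136. Dab2, a clathrin adaptor, rose by 0.77 and Ap2s1 by 0.51, while Epn2, an epsin, read -0.75, or -0.47 when its probe sets were averaged. The clathrin light chain Clta read 0.32 but was lost without any 1 mouse other than WT mouse 2 (0.24 to 0.34). By another probe set Clta read -0.41 and was called lower (limma adjusted p = 0.0442). The heavy chain Cltc read 0.23 and did not pass, but did with quantile normalization (0.25, limma adjusted p = 0.0412). Eps15 (-0.47) lost its call without WT mouse 2 (-0.48) or 3 (-0.42). Under median centring of the arrays 3 were called higher and 3 lower (median 0.01). The median was -0.023 when probe sets were averaged and -0.016 when probe sets matching several transcripts were avoided.

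Caveolae also need phosphatidylinositol 4,5-bisphosphate and sphingomyelin in the membrane. Of 7 tested genes of their synthesis 3 rose and 1 fell (median 0.41), but only 1 was called higher and 0 lower when probe sets were averaged. Sgms2, the sphingomyelin synthase of the plasma membrane, rose from 267 ± 30.8 to 695 ± 68.8 (mean ± SD of 3 mice each), a log2 difference of 1.31 (SE 0.14) with a limma adjusted p of 0.000107. Sptlc2 read 0.64, but -0.20 with the mean of its probe sets, and Pip5k1a 0.58, with that mean 0.55 and not called. Sgms1, the synthase of the Golgi, read -0.40 and lost its call without WT mouse 2 (-0.34) or 3 (-0.40) or CNOT3KO mouse 3 (-0.32).

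**Figure D4:**
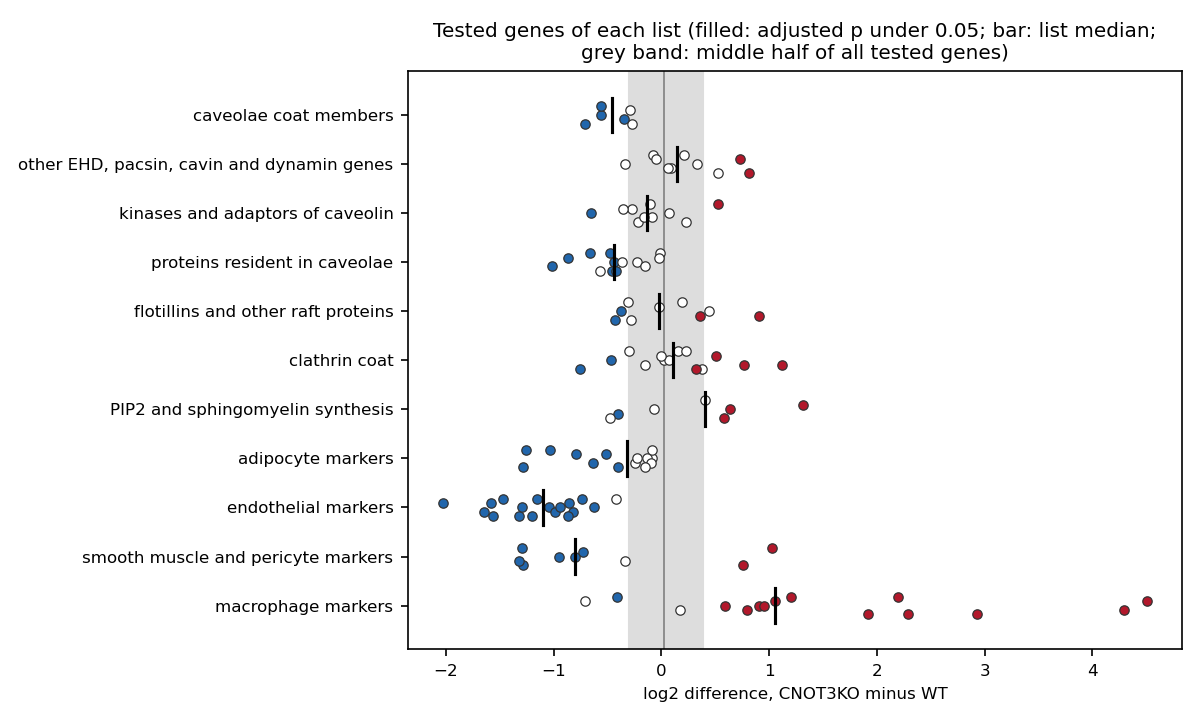
Log2 difference between CNOT3KO and WT (horizontal axis) of each tested gene in 11 lists (rows), filled blue where called lower and red where called higher, with a bar at the list median and a grey band from the 25th to the 75th percentile of all tested genes (-0.30 to 0.39). The caveolae coat genes, the residents of caveolae and the adipocyte, endothelial and smooth muscle and pericyte markers have their medians left of 0. The kinases and adaptors (-0.14) and the raft genes (-0.03) do so by less. Right of 0 lie the medians of the macrophage markers, the other EHD, pacsin and dynamin genes (0.15), the clathrin coat and the lipid synthesis genes (0.41). The median of the clathrin coat (0.11) lies inside the grey band.

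The genes whose pattern over the 6 arrays was most like Cav1, by Pearson's r of log2 values, were BC052688, Rbm27, Bmpr2, Ppm1k and Ivns1abp (r = 0.997, 0.995, 0.994, 0.993 and 0.992). Their log2 differences ran from -1.25 for Ppm1k to -0.30 for BC052688. The closest to Cavin1 were Man1b1, Rnf7, Sik2, Rcl1 and Acp5 (r = 0.999, 0.998, 0.996, 0.996 and 0.995), with log2 differences from -1.17 for Acp5 to -0.30 for Man1b1. BC052688 and Man1b1 did not pass the test. With 2 separated groups these values mainly restate the group difference, and they are given as a description: 200 genes reached an r over 0.95 with Cav1 and 454 with Cavin1.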

How the data were processed

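The authors deposited 1 linear intensity for each probe set on each array. MAS5 made it, per the submitters' processing notes, with settings and scaling target not given in the sources used here. MAS5 as usually run subtracts a mismatch signal, which adds noise to dim probe sets. Biotin-labelled cRNA was made from 500 ng of total RNA, per the labels' protocols. Trimmed array means differed by at most 0.07%, and array medians were 82.1 to 92.9. The number of arrays limits the precision.

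Groups and mouse numbers came from the sample titles. Of 45037 probe sets, 34945 named 1 gene in the platform annotation, 932 several and 9160 none here. Each of 18193 genes was represented by its probe set with the highest mean. A filter at the 40th percentile of mean signal (51.6) left 12769 genes to test. The test was limma 3.58.1 in R 4.3.3 (lmFit, then eBayes with a mean trend) on log2(signal + 22.5), where 22.5 is the 25th percentile of all values. Tests were two-sided and p-values were adjusted by Benjamini-Hochberg over all tested genes at 0.05. Log2 differences, on this scale, understate changes of dim genes. Every probe set was also tested singly. The steps were tested on simulated data. The members and lists were chosen with earlier results of these data known.

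Genes were named by a rule: all members, Cnot3, up to 3 called genes with the largest change in each list, the 5 genes most like Cav1 and Cavin1, and Nos3, Insr, Cd36, Slc2a4 and Plvap. Other names that make up small counts, and Adipoq, Aoc3, Cltc, Flot2, Ehd1 and Ehd3, were chosen after their values were seen. Python 3.11.15, pandas 2.3.3 and matplotlib 3.10.9 served for reading and plotting.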

Additional observations from a re-analysis of the deposited data

How the results depend on the processing

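The alternatives covered the offset, the filter, normalization, the choice of probe set, the empirical Bayes setting, weights for arrays, a block on mouse number, and leaving out single arrays. Cav2, Cavin3 and Ehd2 kept their direction and their side of the threshold under all 19. Cav1 (log2 -0.28 as reported) passed with the filter at the 60th percentile (-0.28), median centring (-0.37), centring on ribosomal protein genes (-0.28), robust eBayes (-0.28), array weights (-0.31) and the replicate block (-0.28), and ran from -0.35 to -0.24 with 1 mouse left out. Cavin1 was -0.13 and not called when its probe sets were averaged and turned to 0.62 when probe sets matching several transcripts were avoided, which replaces its bright probe set by a dim one. Cavin2 ran from -0.42 to -0.29 with 1 mouse left out. Cav3 was tested only with no filter (-0.04, as in the reported values), and Pacsin2 gave no value under any setting.

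All genes called numbered 5115, and 3820 to 6615 under the alternatives; probe sets called numbered 9724, and 6713 to 9942. Deviations of WT and CNOT3KO mice of the same number correlated weakly across genes (0.07, 0.11 and 0.04 for numbers 1, 2 and 3). Those of unlike numbers ran lower, from -0.08 to 0.02. Whether mice of the same number share more than the number was not tested. With that block 5092 genes were called, 5 of them members.

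Among 67 genes named beside the members, signs turned as follows; the cause was not tested. With quantile normalization Adipoq read 0.038 and Cd36 0.093. With median centring Ehd1 read -0.010. When probe sets were averaged Cltc read -0.092, Ehd3 0.12, Flot2 0.0055 and Sptlc2 -0.20. With several-transcript probe sets avoided Clta read -0.41 and was called lower. With array weights Ehd3 read 0.11. With 1 mouse left out Adipoq ran from -0.27 to 0.071, Cd36 from -0.089 to 0.057, Ehd3 from -0.14 to 0.10 and Flot2 from -0.087 to 0.016. Of 1273 values of these genes under the alternatives, 1167 kept direction and side of the threshold, 75 lost the call, 14 gained one and 17 changed sign. Averaging probe sets also ended the calls of Eps15, Erlin1, Slc27a1, Trpc1, Sgms1, Pi16, Rbm27 and Sik2, and Rbm27 and Rcl1 lost theirs without WT mouse 2 or 3 or CNOT3KO mouse 1, Rcl1 also without CNOT3KO mouse 2 (-0.31). Dim probe sets such as those of Cav3 and the further Cavin1 sets limit what can be read from them.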

Other observations

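Cavin4, the cavin of muscle cells and no member of the set above, lay below the filter on mean signal. It entered the test only with no filter (log2 1.499) and with quantile normalization (1.55). In the second case it passed the filter only through its signal in CNOT3KO. It read 24.2, 19.8 and 5.54 in the WT mice and 93.7, 73.7 and 89.9 in the CNOT3KO mice, so the groups did not overlap. The gene was singled out after its values were seen, so no p-value is given for it. Cav3, its partner in muscle, read 7.64 to 24.8 over the 6 mice.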
